A study of Saccharomyces cerevisiae with 18 samples.

Results

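The 10 genes described here encode yeast enzymes that remove superoxide and peroxides: the catalases CTT1 and CTA1, the superoxide dismutases SOD1 and SOD2, the peroxiredoxins AHP1, TSA1, TSA2 and PRX1, and GPX1 and GPX2 of the glutathione peroxidase family. They were taken by gene name from the table of open reading frames (ORFs), where each name was found, so that 10 of 6334 entries were chosen. All 10 passed a filter that left out the 5% of ORFs with the lowest input, after which 6013 ORFs remained. The rule takes them by name alone, but the members were chosen with earlier results of these data known. By the R64 reference, PRX1 (YBL064C) and GPX2 (YBR244W) lie on chromosome II, CTA1 (YDR256C) and TSA2 (YDR453C) on IV, CTT1 (YGR088W) on VII, SOD2 (YHR008C) on VIII, SOD1 (YJR104C) on X, GPX1 (YKL026C) on XI, AHP1 (YLR109W) on XII and TSA1 (YML028W) on XIII. Coordinates were not used here, since the submitters name another build, sacCer2.

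Superoxide dismutases convert superoxide to hydrogen peroxide and oxygen, and hydrogen peroxide is then removed by catalases, which break it down to water and oxygen, or by peroxidases, which reduce it with electrons from thioredoxin or glutathione. Peroxiredoxins and the glutathione peroxidase family also reduce organic hydroperoxides. In budding yeast, genes of this group are known targets of the oxidative stress factors Yap1 and Skn7 and of the general stress factors Msn2 and Msn4, and CTT1 is a standard marker of the general stress response. Hog1 is the mitogen-activated protein kinase of the high osmolarity pathway, which enters the nucleus upon osmotic shock, and Sko1 and Hot1 are DNA-binding factors that act with it.

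Chromatin immunoprecipitation followed by sequencing (ChIP-seq) was performed on S. cerevisiae of the W303 background in logarithmic growth at 30 °C in rich medium (YEPD). Each culture was split, and one portion received KCl to 0.4 M for 5 min (osmotic shock) while the other received YEPD alone (mock-treated). RNA Pol II was followed with an antibody to its untagged subunit Rpb3 in wild type, in Δhog1, which lacks the kinase, and in Δsko1Δhot1, which lacks both factors. Hog1 was precipitated through an HA tag at its own locus in cells otherwise wild type and in Δsko1Δhot1, beside a mock IP (the HA antibody in cells without the tag) and an input, both of wild type. The strain list gives only a Δsko1Δhot1 strain with tagged Hog1, and whether the Rpb3 libraries of Δsko1Δhot1 came from it was not stated. Each of the 14 libraries is the only one of its strain and treatment, so no replicate error could be computed, no difference was tested, and every value, fold and count describes these libraries alone.

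The values are a coverage signal per ORF, scaled by the authors to the length of the ORF and the total of the library. Levels can therefore be compared between genes, and a change is a change relative to the rest of the library. The median signal of all ORFs lay between 7220 and 8280 in the 6 Rpb3 libraries, and was 9960 and 10200 in the input. Signals at the 99th percentile stood 12.6 and 13.6 times above the median in wild-type Rpb3 before and after shock, 6.49 and 8.31 times in Δhog1, and 8.10 and 12.1 times in Δsko1Δhot1, so both Δhog1 libraries and the mock-treated Δsko1Δhot1 library spanned a narrower range than those of wild type. The deleted genes matched the labels: the HOG1 ORF carried an Rpb3 signal of 667 and 1240 in Δhog1 against 18700 and 20500 in wild type, and the HOT1 ORF 569 and 1060 in Δsko1Δhot1 against 6350 and 7820. SKO1 was not analysed here. The supplement states a range of reads that covers the Hog1 libraries, but no read total for any single library, so no counting interval is given.

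Upon osmotic shock in wild type, RNA Pol II rose at 3 of the 10 genes and fell at none, counting from 2-fold on: the cytosolic catalase gene CTT1 rose 48.9-fold, the peroxiredoxin gene AHP1 rose 5.27-fold, and the mitochondrial peroxiredoxin gene PRX1 rose 3.83-fold. Of all 6013 ORFs, 4.49% were higher by this rule and 7.73% lower. The median log2 fold of the 10 genes was 0.38 against 0.04 over all ORFs. The other 7 genes had log2 folds from -0.41 at CTA1 to 0.83 at SOD2. Log2 folds are given on the scale of log2(signal + 989), which understates the change of weakly occupied genes, whereas plain folds are ratios of the signals themselves.

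**Figure D1:**
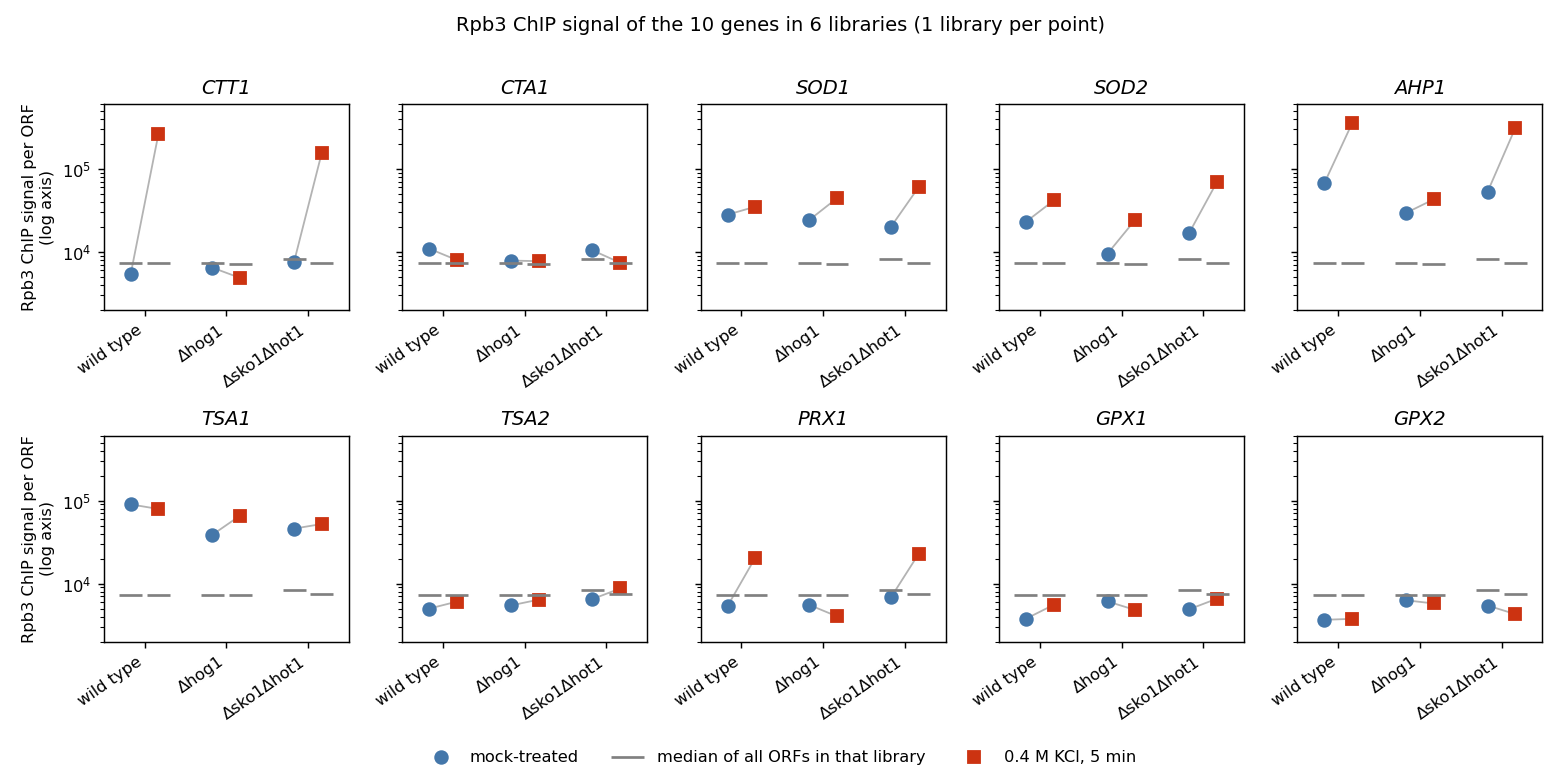
Rpb3 ChIP signal per ORF (vertical log axis) of the 10 genes in mock-treated cells (circles) and after 5 min in 0.4 M KCl (squares) in wild type, Δhog1 and Δsko1Δhot1, with 1 library per point and the median of all ORFs in that library as a grey bar. CTT1 went from 5420 to 265000 in wild type and from 6490 to 4880 in Δhog1, and AHP1 reached 356000 in wild type and 316000 in Δsko1Δhot1.

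Of the catalase genes, CTT1 rose steeply in wild type and Δsko1Δhot1, and CTA1 passed 2-fold in no strain. CTT1 encodes catalase T of the cytosol, and CTA1 encodes catalase A, which is found in peroxisomes and mitochondria and is repressed on glucose. The Rpb3 signal of CTT1 was 5420 in mock-treated wild type and 265000 after shock, 6490 and 4880 in Δhog1, and 7630 and 158000 in Δsko1Δhot1. It was below the input of the same treatment (11600 and 17100) in every mock-treated library and in stressed Δhog1, and far above it in the other stressed libraries, at 15.5 times the input in wild type and 9.24 times in Δsko1Δhot1. Its log2 fold was 5.38 in wild type, the 7th highest of all ORFs tested, and 4.21 in Δsko1Δhot1, the 10th highest, against -0.35 in Δhog1. By level, it moved from place 4223 to place 18 in wild type.

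CTA1 stayed within 2-fold in all comparisons. Its Rpb3 signal was 11000 and 8010 in mock-treated and stressed wild type, 7900 and 7770 in Δhog1, and 10500 and 7430 in Δsko1Δhot1. These 6 values lie between 0.759 and 1.15 times the input, and the log2 folds were -0.41, -0.02 and -0.45. With input (9540 and 9790) subtracted, wild type keeps little mock-treated signal at this gene and none after shock. The resulting log2 value of -1.31 is thus set largely by the pseudocount.

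Both superoxide dismutase genes were well occupied before the shock. SOD1 encodes the copper-zinc enzyme, most of which is cytosolic, and SOD2 the manganese enzyme of the mitochondrial matrix. The Rpb3 signal of SOD1 was 28200 and 35200 in mock-treated and stressed wild type, 24300 and 44500 in Δhog1, and 20100 and 60600 in Δsko1Δhot1. Stressed Δsko1Δhot1 was the highest of the 6 libraries and mock-treated Δsko1Δhot1 the lowest. The log2 folds were 0.31, 0.85 and 1.55, of which the last alone exceeds 2-fold.

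The folds of SOD2 followed the same order of strains. Its signal was 23100 and 41800 in mock-treated and stressed wild type, 9600 and 24600 in Δhog1, and 17100 and 70200 in Δsko1Δhot1. The stressed library was the higher in each strain, and the Δhog1 libraries lay below those of the other strains under the same treatment. The log2 folds were 0.83, 1.27 and 1.98. The 2-fold rise in Δhog1 starts from a signal of 1.08 times the wild-type input, as this strain has no input of its own. The rise is lost when each library is divided by the wild-type input of its treatment (log2 0.99). It is also lost with a pseudocount of 1 times the median input (log2 0.82).

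Among the peroxiredoxins, AHP1 and PRX1 rose in wild type, while the paralogs TSA1 and TSA2 did not reach 2-fold. AHP1 encodes a thioredoxin-dependent peroxiredoxin of the cytosol that prefers organic hydroperoxides. Its Rpb3 signal was 67500 and 356000 in mock-treated and stressed wild type, 29600 and 43200 in Δhog1, and 53600 and 316000 in Δsko1Δhot1. The stressed libraries of wild type and Δsko1Δhot1 stood far above the other 4, and the stressed Δhog1 library was below mock-treated wild type. The log2 folds were 2.38, 0.53 and 2.54. After shock AHP1 held place 11 of all ORFs by level in wild type and place 4 in Δsko1Δhot1, from places 102 and 88.

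PRX1, which encodes the peroxiredoxin of mitochondria, rose in the same strains as AHP1, at a much lower level. Its Rpb3 signal was 5350 and 20500 in mock-treated and stressed wild type, 5540 and 4030 in Δhog1, and 6800 and 22800 in Δsko1Δhot1. Only the stressed libraries of wild type and Δsko1Δhot1 exceeded the input of 9330 and 10400, at 1.97 and 2.19 times. The log2 folds were 1.76, -0.38 and 1.61. Because the level is low, the calls in wild type and Δsko1Δhot1 are lost with a pseudocount of 1 times the median input (log2 0.996 and 0.97).

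TSA1, the gene of the major cytosolic thioredoxin peroxidase, had the highest Rpb3 signal of the 10 genes in mock-treated wild type. Its signal was 89900 and 79100 in mock-treated and stressed wild type, 38700 and 65900 in Δhog1, and 45900 and 52200 in Δsko1Δhot1. Wild type was the higher strain under both treatments, and the log2 folds were -0.18, 0.75 and 0.18. TSA2, its weakly expressed paralog, had signals of 4990 and 6060, 5450 and 6400, and 6510 and 8730 in the same order of libraries. Of these, only stressed Δsko1Δhot1 was above the input, and the log2 folds were 0.24, 0.20 and 0.37.

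GPX1 and GPX2, which encode members of the phospholipid hydroperoxide glutathione peroxidase family, were below the input in all 6 Rpb3 libraries. GPX1 had signals of 3770 and 5540 in wild type, 6090 and 4800 in Δhog1, and 4910 and 6580 in Δsko1Δhot1. GPX2 had 3660 and 3760, 6290 and 5760, and 5430 and 4280. The log2 folds of GPX1 were 0.46, -0.29 and 0.36, and those of GPX2 were 0.03, -0.11 and -0.28.

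The order of the 10 genes by Rpb3 level in mock-treated wild type was TSA1, AHP1, SOD1, SOD2, CTA1, CTT1, PRX1, TSA2, GPX1 and GPX2. After shock it was AHP1, CTT1, TSA1, SOD2, SOD1, PRX1, CTA1, TSA2, GPX1 and GPX2. With 1 library each, close neighbours in this order, such as CTT1 and PRX1 before shock (5420 and 5350), cannot be told apart. Summed over the 10 genes, the share of the Rpb3 signal of all ORFs went from 0.331% to 1.11% in wild type. CTT1 alone made up 0.357% and AHP1 0.479% of the stressed total.

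**Figure D2:**
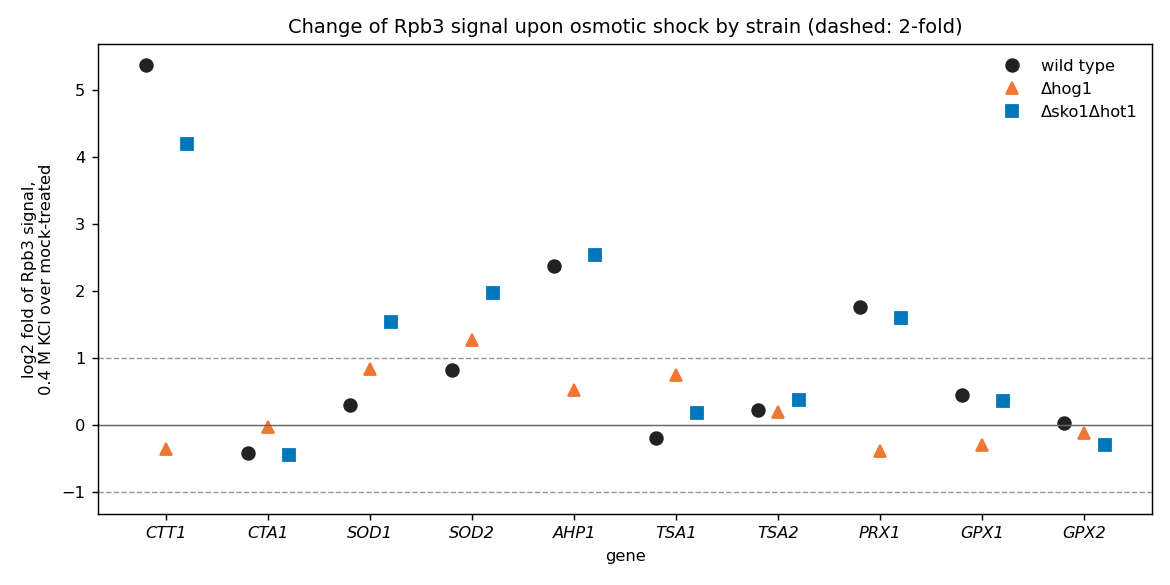
Log2 fold of the Rpb3 signal (0.4 M KCl over mock-treated, on log2(signal + 989)) for each gene in wild type (circles), Δhog1 (triangles) and Δsko1Δhot1 (squares), 1 value per strain and no error bars because there is 1 library per condition. Dashed lines mark 2-fold. CTT1, AHP1 and PRX1 lie above 2-fold in wild type and Δsko1Δhot1 and below it in Δhog1, and SOD1 and SOD2 are highest in Δsko1Δhot1.

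Without the kinase, 1 of the 10 genes, SOD2, rose 2-fold and none fell, beside 1.03% of all ORFs that rose and 0.0665% that fell. The genes that rose in wild type had log2 folds of -0.35 (CTT1), 0.53 (AHP1) and -0.38 (PRX1). The log2 fold in Δhog1 minus that in wild type was -5.72 at CTT1, -2.14 at PRX1 and -1.85 at AHP1, and was 0.94 at TSA1. Over all ORFs, 4.64% had a difference below -1 and 9.10% one above 1. The summed share of the 10 genes went from 0.247% to 0.349% in Δhog1.

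The strains also differed at the same treatment. In stressed cells, Δhog1 was at least 2-fold lower than wild type at CTT1 (log2 -5.50), AHP1 (-3.01) and PRX1 (-2.10), and higher at none, beside 5.12% of all ORFs lower and 5.22% higher. In mock-treated cells Δhog1 was lower at TSA1 (-1.20), SOD2 (-1.19) and AHP1 (-1.16), and higher at none, beside 5.06% of all ORFs lower and 1.28% higher. These are 3 of the 4 genes with the highest signal in mock-treated wild type, and the narrower range of the Δhog1 libraries given above moves in the same direction. Its part in these values was not tested. With a pseudocount of 1 times the median input, only TSA1 remained past 2-fold in the unstressed comparison (log2 -1.04).

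Without Sko1 and Hot1, 5 of the 10 genes rose 2-fold: CTT1, AHP1 and PRX1 as in wild type, and SOD1 and SOD2. None fell. Of all ORFs, 6.19% rose and 7.97% fell, and the median log2 fold was 0.96 for the 10 genes and -0.13 for all ORFs. Relative to that median, the folds of these genes were larger, for example 1.67 at SOD1. The log2 fold minus that of wild type was 1.24 at SOD1 and 1.15 at SOD2, -1.17 at CTT1, 0.16 at AHP1 and -0.15 at PRX1, where 1.53% of all ORFs had a difference above 1 and 1.30% one below -1. These values share the wild-type libraries with those of Δhog1.

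At the same treatment, none of the 10 genes differed 2-fold between Δsko1Δhot1 and wild type. In mock-treated cells the log2 differences ranged from -0.95 at TSA1 to 0.47 at GPX2, and 0.599% of all ORFs passed 2-fold in either direction. The median of all ORFs was 0.16 higher in Δsko1Δhot1, and relative to it TSA1 was lower past 2-fold (log2 -1.12). In stressed cells the log2 differences ranged from -0.74 at CTT1 to 0.77 at SOD1, with SOD2 at 0.73, and 2.64% of all ORFs passed 2-fold. Compared with wild type, SOD1 and SOD2 had a lower mock-treated and a higher stressed signal in Δsko1Δhot1. The mock-treated library of this strain is one of those with a narrower range (8.10 times against 12.6 in wild type), and the part of that in the lower mock-treated values of SOD1, SOD2 and TSA1 and in the folds was not tested.

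Hog1 signal over the ORFs rose at CTT1 and AHP1 in wild type. At CTT1 it was 13800 in mock-treated and 65500 in stressed cells (log2 2.17), and at AHP1 21700 and 50800 (log2 1.19). These 2 of 10 genes stand beside 0.815% of all ORFs that rose. The mock IP, which has no tag to precipitate, also rose at the same genes, from 8550 to 29200 at CTT1 (log2 1.66) and from 11200 to 29000 at AHP1 (log2 1.30), with 2.10% of all ORFs higher. The input went from 11600 to 17100 at CTT1 and from 12300 to 18200 at AHP1. Dividing Hog1 by the input leaves CTT1 past 2-fold (log2 1.65) and takes AHP1 below it (log2 0.66).

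An ORF was called occupied by Hog1 when its Hog1 enrichment (the Hog1 signal less that of the mock IP, over the input), its ratio of stressed over mock-treated Hog1, and its Hog1 signal each exceeded the median of all ORFs by 3 standard deviations. By these criteria, CTT1 was the 1 occupied gene of the 10 in wild type, as were 0.532% of all ORFs. AHP1 passed the ratio (2.34 against a cutoff of 2.05) and the signal criteria, but its enrichment of 1.20 was below the cutoff of 1.58. Its Rpb3 signal after shock was above that of CTT1. The occupied set as a whole depends on these settings: it went from 32 ORFs to 0, CTT1 included, when no ORF was left out for low input, and to 7, without CTT1, when Hog1 divided by mock IP (2.24 at CTT1) took the place of the enrichment.

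PRX1, the remaining gene that rose in Rpb3, had a Hog1 signal of 12500 and 16200 (log2 0.35) and an enrichment of 0.58, beside a median of 0.50 over all ORFs. TSA1 had Hog1 signals of 19900 and 23400 and an enrichment of 0.88, and SOD2 17500 and 20600 and an enrichment of 0.80. CTA1, TSA2, GPX1 and GPX2 had Hog1 signals from 7850 to 14800, each lower in stressed than in mock-treated cells by less than 2-fold. Their enrichments lay between 0.248 and 0.511, and that of SOD1 was 0.0971, the lowest of the 10. The Hog1 signals of SOD1 were 17600 and 15900 while its mock IP went from 7430 to 14900.

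In Δsko1Δhot1 the Hog1 signal of CTT1 was 13100 in mock-treated and 31400 in stressed cells (log2 1.20), and CTT1 was the 1 gene of the 10 past 2-fold, beside 1.21% of all ORFs that rose. The stressed value was 1.08 times that of the stressed mock IP in wild type, and the enrichment was 0.129 beside a median of 0.18 over all ORFs. Division by the wild-type input takes the rise below 2-fold (log2 0.68). The Rpb3 signal of CTT1 in stressed cells of this genotype was 158000, as given above. None of the 10 genes was called occupied, where 0.116% of all ORFs were.

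At AHP1 the Hog1 signal in Δsko1Δhot1 was 29400 and 51700 (log2 0.79), beside 21700 and 50800 in wild type. The libraries differ in their medians over all ORFs, which were 13000 for stressed Hog1 in wild type, 9710 in Δsko1Δhot1 and 7930 for the stressed mock IP. Its enrichment was 1.25, place 35 of all ORFs in this strain, and it passed only the signal criterion. SOD2 had Hog1 signals of 22400 and 24000 and an enrichment of 1.11, and SOD1 21500 and 22900 and an enrichment of 0.78. TSA1 was at 25200 and 21500, PRX1 at 11700 and 10600, and CTA1, TSA2, GPX1 and GPX2 between 3950 and 13400. The mock IP and input of wild type served for both strains. The HOT1 ORF had Hog1 signals of 2280 and 2870 in Δsko1Δhot1 against 14000 and 16800 in wild type, as the labels of these libraries call for.

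**Figure D3:**
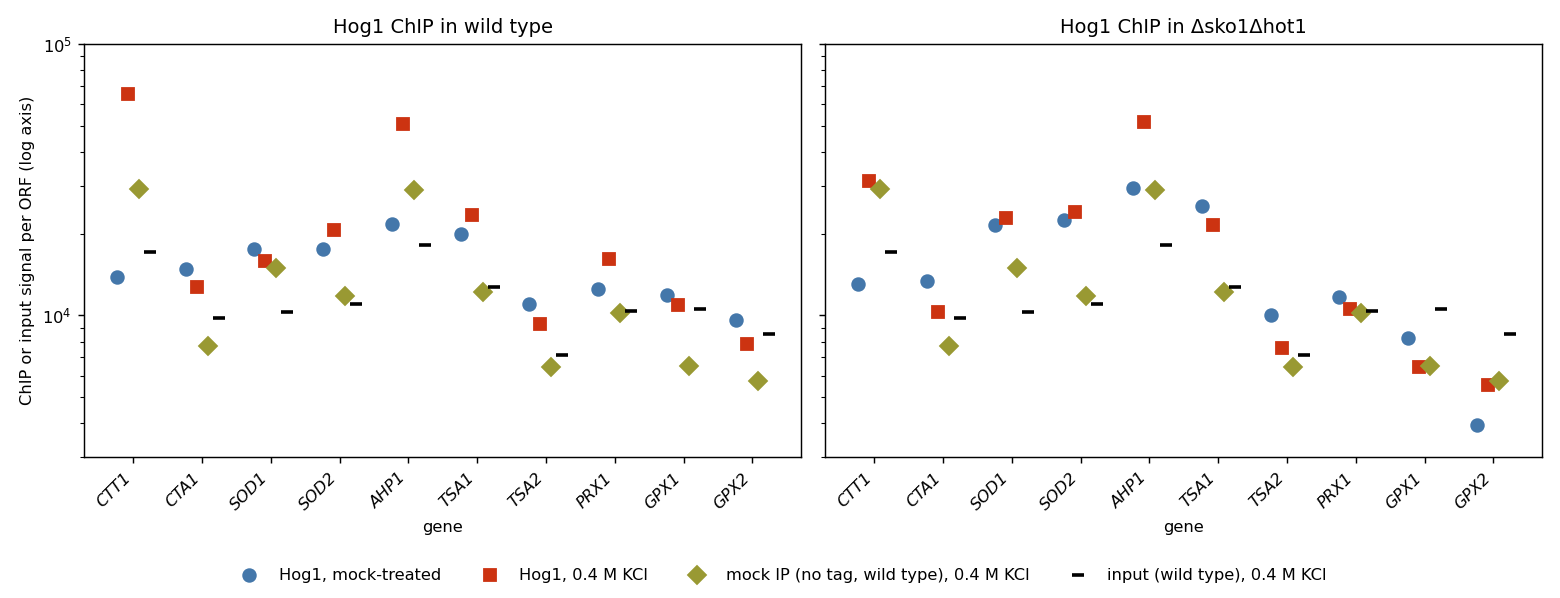
Signal per ORF (vertical log axis) of the 10 genes in the Hog1 ChIP of mock-treated (circles) and stressed cells (squares), for wild type on the left and Δsko1Δhot1 on the right, with the stressed mock IP (diamonds) and input (dashes) of wild type in both panels, 1 library per point. At CTT1 stressed Hog1 was 65500 in wild type and 31400 in Δsko1Δhot1 beside a mock IP of 29200, and at AHP1 it was 50800 and 51700 beside 29000.

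The ORFs most alike to the 3 genes that rose in wild type were sought by the distance between their log2 signals over the 6 Rpb3 libraries, after each ORF's own mean was subtracted. The nearest to CTT1 were FMP48 (distance 0.36), TPS2 (0.41) and YFL013W-A (0.49). FMP48 went from 4000 to 289000 in wild type, from 5510 to 4600 in Δhog1 and from 6600 to 141000 in Δsko1Δhot1. The nearest to AHP1 were NCE102 (0.42), OM14 (0.57) and PHO23 (0.59), and NCE102, which encodes an eisosome protein of the plasma membrane, went from 54100 to 283000 in wild type. The nearest to PRX1 were TPS3 (0.28), GIP2 (0.31) and YLR326W (0.36). TPS2 encodes trehalose-6-phosphate phosphatase and TPS3 a regulatory subunit of the trehalose synthase complex.

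Among the genes next to these on the chromosome, PDC6, a pyruvate decarboxylase gene beside CTT1, went from 5900 to 35700 in wild type (log2 2.41), and from 4860 to 3750 in Δhog1. NNF2 on the other side of CTT1 was at 4240 and 4100. YLR108C beside AHP1 went from 6350 to 23800 (log2 1.76). CCW12, on the other side of AHP1, had no values among the ORFs used, so its signal could not be set beside that of AHP1. YHR007C-A beside SOD2 went from 7460 to 19600 in wild type (log2 1.29) and from 7700 to 43000 in Δsko1Δhot1 (log2 2.34). The genes beside PRX1, SEF1 and KIP1, had log2 folds of 0.03 and 0.12 in wild type. ChIP signal carries no strand and spreads over a fragment's length, and its part in the values of these neighbours was not tested.

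Other genes of redox metabolism were described from 5 lists with 53 genes, of which 45 were tested: the thioredoxin and glutaredoxin systems, other peroxidases and their helpers, glutathione transferases, NADPH supply, and regulators. The lists were chosen with earlier results of these data known, so their counts beside those of all ORFs are descriptive only. In wild type 6 of 45 rose and none fell in Rpb3 signal, beside 4.49% of all ORFs higher and 7.73% lower, and the median log2 fold of the 45 was 0.21 against 0.04 over all ORFs. Among them were 1 of 14 thioredoxin and glutaredoxin genes, 1 of 5 glutathione transferases, 2 of 13 NADPH genes and 2 of 9 regulators, and none of the 4 other peroxidases and helpers. The regulator CIN5, a Yap-family factor, had a log2 fold of 3.95 and went from 5280 to 96100. GRX2, a glutaredoxin gene, went from 6480 to 27600 (log2 1.94).

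NADPH, which feeds electrons to these peroxidases through thioredoxin and glutathione reductase, is made by the pentose phosphate pathway and by the acetaldehyde dehydrogenase Ald6. ALD6 was the most highly occupied of the listed genes and went from 192000 to 757000 (log2 1.97), and SOL4, a 6-phosphogluconolactonase gene, from 4520 to 24700 (log2 2.22). ZWF1, which encodes the first enzyme of that pathway, went from 20700 to 37200 (log2 0.82). Within the same list, GND1 went down from 33200 to 22900 (log2 -0.52) and TKL1 from 59000 to 32800 (log2 -0.83). The median log2 fold of the 13 NADPH genes tested was 0.18, against 0.04 over all ORFs. MSN2 went from 7550 to 31400 (log2 1.92), and GTO3, a glutathione transferase gene, had a log2 fold of 1.28. YAP1 and SKN7, which encode the main oxidative stress regulators, were at 0.15 and -0.55.

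In Δhog1 none of the 45 genes passed 2-fold, where 1.03% of all ORFs were higher and 0.0665% lower, and the median was 0.09 against -0.05 over all ORFs. The 45 include HOG1, which is deleted in Δhog1 (Rpb3 signal 667 and 1240, log2 0.43). They also include HOT1, which is deleted in Δsko1Δhot1 (569 and 1060, log2 0.40). In those strains the values are not of an intact gene, yet they enter the counts and medians. In Δsko1Δhot1 6 of 45 rose, beside 6.19% of all ORFs, with log2 folds of 3.43 at CIN5, 3.17 at SOL4, 2.52 at GRX2, 2.22 at GTO3, 1.52 at CCP1, which encodes the mitochondrial cytochrome c peroxidase, and 1.499 at ZWF1. MSN2 and ALD6 were at 0.68 and 0.94. Hog1 signal rose in wild type at 2 of 45, ALD6 (log2 2.01) and CIN5 (log2 1.46), and at none in Δsko1Δhot1, beside 0.815% and 1.21% of all ORFs. The mock IP also rose at both genes, from 17900 to 54300 at ALD6 and from 5000 to 12200 at CIN5.

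**Figure D4:**
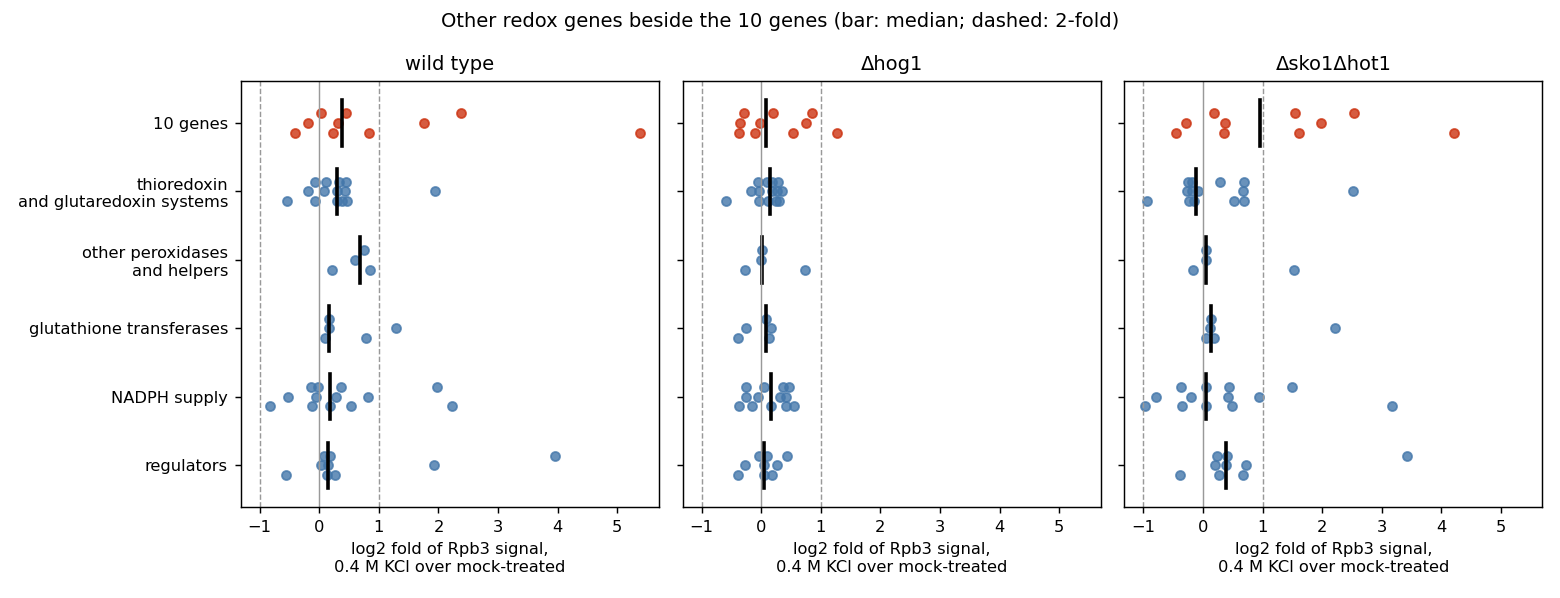
Log2 fold of the Rpb3 signal (0.4 M KCl over mock-treated) for the 10 genes (top row) and 5 lists of other redox genes (45 genes tested) in wild type, Δhog1 and Δsko1Δhot1, with 1 point per gene, a black bar at the median of each row and dashed lines at 2-fold. In wild type 6 listed genes lie above 2-fold with CIN5 at 3.95, in Δhog1 none does, and the median of the 10 genes is 0.38 in wild type and 0.96 in Δsko1Δhot1.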

How the data were processed

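ChIP-seq libraries of Rpb3, Hog1, mock IP and input were used, 1 per strain and treatment. The authors deposited a table of ORFs with a coverage signal that they name RPKM, scaled to ORF length and library total, with parts that overlap another ORF left out. The submitters' processing notes name Bowtie and sacCer2, the supplement names ELAND as the aligner, and neither gives a version. A deposited column that marks Hog1-occupied ORFs, and the deposited lists of Sko1 and Hot1 peaks, were not used.

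Of 6334 entries, 4 were dropped because they share one name, then the 5% with the lowest summed input. Log2 folds were computed with a pseudocount of 989, which is 0.1 times the median input, and a change was counted from 2-fold on. Hog1 occupancy was recomputed with the criteria of the study's methods and cutoffs at 3 standard deviations. The resulting wild-type set of 32 ORFs is larger than the one the paper reports, and the sets were not compared gene by gene. Alternatives were another pseudocount, no filter, centring on the median, input subtraction (floored at 0) or division, a threshold of 1.5-fold, and other Hog1 cutoffs. All 10 members were named, with the 3 nearest ORFs for those past 2-fold in wild type, and listed redox genes past 2-fold, and others for their role. Neighbours and names came from the R64 reference, which matched 5792 of 6330 ORFs. The members and lists were chosen with earlier results of these data known. Scripts ran in Python 3.11.15 with numpy 2.4.6 and pandas 2.3.3, figures in matplotlib 3.10.9, and were tested on simulated data.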

Additional observations from a re-analysis of the deposited data

Results flagged for a closer look

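At CTT1 and PRX1 the sign of the Rpb3 log2 fold differed between the strains. The log2 fold of CTT1 was 5.38 in wild type and 4.21 in Δsko1Δhot1 but -0.35 in Δhog1, and that of PRX1 was 1.76 and 1.61 but -0.38. The values in Δhog1 are within 2-fold. Both genes lay below the wild-type input in both Δhog1 libraries. Input subtraction was floored at 0, so it gives a log2 fold of 0.0 here by construction. Division by that input gives -0.87 at CTT1 and -0.52 at PRX1. The values show no rise in Δhog1, and whether they hold a fall was not tested. With 1 library per condition, the differences between strains were not tested.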

How the results depend on the processing

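Of 540 values of single members under the alternatives, none changed sign past 2-fold. On the log2 scale 412 moved by less than 0.17 and 128 by more. This limit is the spread of the wild-type input fold, stressed over mock-treated, over all ORFs. It includes a change of treatment and no IP, so it does not measure replicate error. Leaving out the filter cannot change a member's fold or 2-fold count, and division by input cancels between strains at the same treatment. Centring shifts a fold by the median of all ORFs, at most 0.16. Part of the 412 was therefore fixed in advance, and their number does not measure stability. Of 106 counts, 77 stayed within 1.5 times. Counts here pool both directions. With input subtracted, the Rpb3 count went from 3 to 5 in wild type (4 higher, 1 lower) and from 1 to 2 in Δhog1 (both higher), and the Hog1 count in Δsko1Δhot1 from 1 to 3 (1 higher, 2 lower). Between Δsko1Δhot1 and wild type it went from 0 to 1 in mock-treated (lower) and from 0 to 1 in stressed cells (higher). The other redox genes went from 6 to 12 in wild type (10 higher), from 0 to 7 in Δhog1 (6 higher) and from 6 to 17 in Δsko1Δhot1 (14 higher), and for Hog1 from 2 to 5 in wild type, all higher, and from 0 to 20 in Δsko1Δhot1, of which 2 were higher and 18 lower. At 1.5-fold, Rpb3 in Δhog1 gave 3 members, all higher, the comparison of Δsko1Δhot1 with wild type 1 unstressed (lower) and 4 stressed (2 higher), and Hog1 in Δsko1Δhot1 2, both higher. The other redox genes gave 12 (11 higher), 2 (1 higher) and 15 (12 higher) for Rpb3 and 4 and 2, all higher, for Hog1. A pseudocount of 1 times the median input left 0 members in Δhog1, 1 in the unstressed comparison of Δhog1 with wild type, and for Hog1 1 in wild type and 0 in Δsko1Δhot1. Division by input left 0 members in Δhog1 and for Hog1 1 in wild type and 0 in Δsko1Δhot1. Centring gave 1 in the unstressed comparison of Δsko1Δhot1 with wild type. The occupied count of members in wild type went from 1 to 0 without the filter and with Hog1 divided by mock IP, where the count over all ORFs went from 32 to 0 and to 7. The lower threshold counts smaller moves by construction. Subtraction was floored at 0, which can widen moves at genes near the input and sets those below it in both libraries to 0.0. The cause of the changed counts was not tested otherwise. By the methods, cultures were split between the treatments. With 1 library per condition, however, no paired test was possible, and no library could be left out. Alternatives for Hog1 at promoters and downstream regions and for Sko1 and Hot1 peaks were not run.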

Other observations

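TSA1 and its neighbour YOX1, a homeodomain repressor gene chosen here after its values were seen, were set side by side. YOX1 went from 24600 to 12900 in wild type (log2 -0.88), from 12900 to 27900 in Δhog1 (log2 1.06) and from 18000 to 12400 in Δsko1Δhot1 (log2 -0.50), where TSA1 had log2 folds of -0.18, 0.75 and 0.18. URA8 beside SOD1 had log2 folds of 0.36, 0.26 and 1.40, where SOD1 had 0.31, 0.85 and 1.55. The differences between strains were not tested.

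The authors also deposited signal for the 1000 bp before each ORF and for the region from 50 to 500 bp after it. Before CTT1, the columns headed input went from 13700 to 45200 and those headed Hog1 in wild type from 7060 to 5520. Before AHP1, those headed input went from 14200 to 25900 and those headed Hog1 from 6570 to 8430. After CTT1, the columns headed input went from 8980 to 26500 and those headed Hog1 in wild type from 5640 to 10700. In the ORF table it is Hog1 that rose more than input at CTT1. Which library each of these columns holds was not settled, and no Hog1 result was drawn from them.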
